A study of Brassica napus with 16 samples.

Results

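In the young leaf libraries of Brassica napus (oilseed rape), 183 of the 101040 genes listed were lower in replicate 1 than in replicate 2 in both cultivars, 2063A and B409. A gene was taken when log2(FPKM + 1) in young leaf replicate 1 lay more than 1 below replicate 2 in each cultivar and FPKM was at least 5 in both replicate 2 libraries. FPKM counts fragments for each kilobase of a transcript, relative to the size of the library. The genes were thus selected on the leaf difference itself, which is given below as a description with no test. Of the 12889 genes that had the required FPKM in replicate 2, the 183 made up 1.42%. The mirrored rule, with replicate 1 higher and an FPKM of at least 5 in both replicate 1 libraries, took 148 of 12895 genes (1.15%).

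The 16 libraries hold 4 tissues of each cultivar, with 2 replicates a tissue. Young leaves came from hydroponic plants 2 weeks old, and roots were taken after 7 d on moist filter paper, both in a growth chamber with 16 h of light at 22 °C and 8 h of dark at 18 °C. Flower buds of at most 2 mm and siliques 3 to 5 cm in length came from plants in the field. Both cultivars were sampled without any treatment, and the labels used here give no hour of harvest and no count of plants in a replicate. Nothing in the labels says that the 2 replicates of a tissue are separate plants, so p-values stand for the spread between libraries, part or all of which may be technical. In bulk tissue, fewer cells of a type and less RNA per cell cannot be told apart.

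Brassica napus is an allotetraploid: it carries the chromosomes of both an A and a C parent, and many genes have a homeolog, a counterpart on the matching chromosome of the other parent. Leaf RNA levels of plants are known to move with light, hour of day, leaf age, nutrition and stress, and the labels used here give none of these for a single replicate. The gene identifiers carry the subgenome and chromosome in their name (A01 to A10, C01 to C09), and no gene description was at hand. No role is given to any gene here, no state of the leaves is described from these genes, and the tissue labels were not checked against marker genes. The sources used here do not say how reads matching both homeologs were assigned, so near-identical copies have uncertain values.

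The young leaf replicates lay farther apart than those of the other tissues. Pearson's r of log2(FPKM + 1) over all genes, which are not independent replicates, was 0.969 in 2063A and 0.966 in B409 young leaf, and 0.991 to 0.993 in flower bud, silique and root. Replicate 1 listed more genes at 0 than replicate 2 in the leaf of both cultivars, with 53812 against 47999 in 2063A and 51623 against 49235 in B409. The same direction was seen in siliques of both cultivars (50146 against 45675 in 2063A, 47286 against 45294 in B409) and in 2063A flower bud. It was the other way in B409 flower bud and in the roots of both cultivars. At an FPKM of at least 1, 2063A young leaf replicate 1 had fewer genes than replicate 2 (33483 against 35976). B409 young leaf replicate 1 had more (34808 against 34413). Summed FPKM of all libraries ran between 519039 and 617686. Read depth is unknown, so no counting interval can be given, and a value of exactly 0 is described as listed at 0. The part of these library features in the leaf difference was not tested.

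The median difference of the 183 genes, replicate 1 minus replicate 2, was -1.53 in 2063A and -1.38 in B409 on the log2(FPKM + 1) scale, against -0.12 and -0.04 for the 12889 genes with enough FPKM. As a ratio of FPKM + 1 this was a 2.88-fold lower level in 2063A replicate 1 and a 2.59-fold lower one in B409 replicate 1. The difference spanned -6.29 to -1.004 in 2063A and -8.04 to -1.01 in B409. It was below -2 in 44 genes in 2063A and in 37 genes in B409, and in 20 genes it was below -2 in both. The drop was the larger one in 2063A for 116 genes and in B409 for 67. Most genes that met the rule in 1 cultivar did not meet it in the other. In 2063A alone 781 of the 12889 genes (6.06%) were lower by more than 1, of which the 183 are 23.4%, and in B409 alone 550 (4.27%), of which they are 33.3%.

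**Figure D1:**
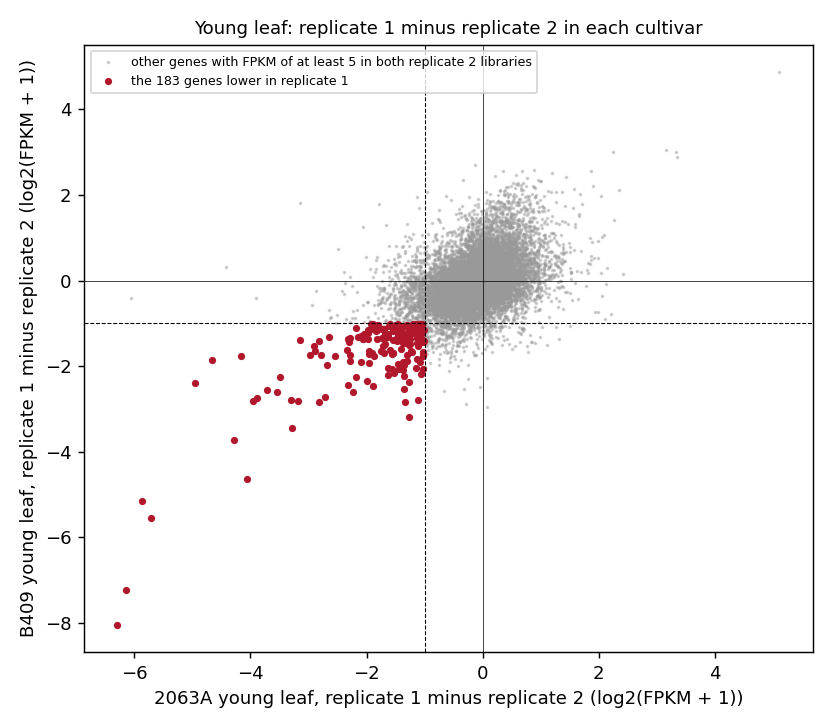
Difference of log2(FPKM + 1), young leaf replicate 1 minus replicate 2, in 2063A (horizontal axis) and in B409 (vertical axis), with 1 point per gene that had an FPKM of at least 5 in both replicate 2 libraries. The 183 genes that met the rule are red and fill the lower left corner by construction, down to -6.29 in 2063A and -8.04 in B409.

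The replicate difference was also counted with no rule on replicate 2, over the 15850 genes whose mean FPKM reached 5 in the 4 young leaf libraries. There, 180 genes were lower in replicate 1 by more than 1 in both cultivars and 140 were higher in both. Genes with opposite signs were fewer, with 26 lower in 2063A replicate 1 and higher in B409 replicate 1, and 9 the other way round. Pearson's r between the 2 cultivars' replicate differences was 0.43 across these genes, as a description. The differences of the 2 cultivars share no library.

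The 4 genes with the largest drops had a mean difference over both cultivars of more than 5 in size on the log2 scale. The next gene, BnaC07g39340D, was at -4.35. The 4 genes lie on chromosomes A01, C01, A09 and C09, and A01 with C01 and A09 with C09 are homeologous chromosome pairs. BnaA01g14450D had 0.498 FPKM in replicate 1 and 116.5 FPKM in replicate 2 of 2063A young leaf, and 0.0695 and 281 FPKM in those of B409. BnaC01g17020D had 3.06 and 234.6 FPKM in replicates 1 and 2 of 2063A young leaf, and 4.63 and 198 FPKM in those of B409. Each was at its highest of all 16 libraries in the replicate 2 leaves, and its replicate 1 leaves lay below every silique library.

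BnaC09g10980D had 0.613 and 113.5 FPKM in replicates 1 and 2 of 2063A young leaf, and in B409 it was listed at 0 in replicate 1 and had 150 FPKM in replicate 2. BnaA09g10710D was listed at 0 in replicate 1 of both cultivars and had 51.2 FPKM in replicate 2 of 2063A and 46.3 FPKM in replicate 2 of B409. Again the 2 replicate 2 leaves were the highest of the 16 libraries for both genes.

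Outside the leaf the replicates of these 4 genes lay close together. BnaA01g14450D had 1.94 and 2.24 FPKM in flower buds of 2063A and 0.627 and 0.106 FPKM in those of B409, and 4.26 and 3.30 FPKM in roots of 2063A and 5.49 and 3.60 FPKM in those of B409. BnaC09g10980D was listed at 0 in all 4 flower bud libraries, and had 4.62 and 3.17 FPKM in roots of 2063A and 4.71 and 5.20 FPKM in those of B409. The silique levels of all 4 differed between the cultivars. BnaA01g14450D had 29.5 and 27.9 FPKM in siliques of 2063A against 8.98 and 9.72 FPKM in those of B409, BnaC01g17020D had 54.4 and 56.3 FPKM against 11.7 and 11.1 FPKM, BnaC09g10980D had 4.06 and 3.85 FPKM against 0.182 and 0.459 FPKM, and BnaA09g10710D had 4.38 and 4.39 FPKM against 0.472 and 0.749 FPKM.

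In siliques, then, 2063A lay above B409 for each of the 4 genes, with no overlap between the libraries. The log2 differences, 2063A minus B409, were 1.52 (SE 0.21) for BnaA01g14450D, 2.18 (SE 0.19) for BnaC01g17020D, 1.92 (SE 0.16) for BnaC09g10980D and 1.75 (SE 0.14) for BnaA09g10710D. Their limma adjusted p-values were 0.00029, 1e-05, 9.1e-06 and 6.1e-06, from a fit of the 12 libraries of the other tissues. With the young leaf libraries in the fit, the differences were the same size, their SEs were 1.65 to 2.15, and none passed (adjusted p = 0.49 to 0.78). The 4 genes were chosen on the leaf spread, which enters those SEs. The larger SEs thus follow from the rule, and nothing is read from the loss.

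**Figure D2:**
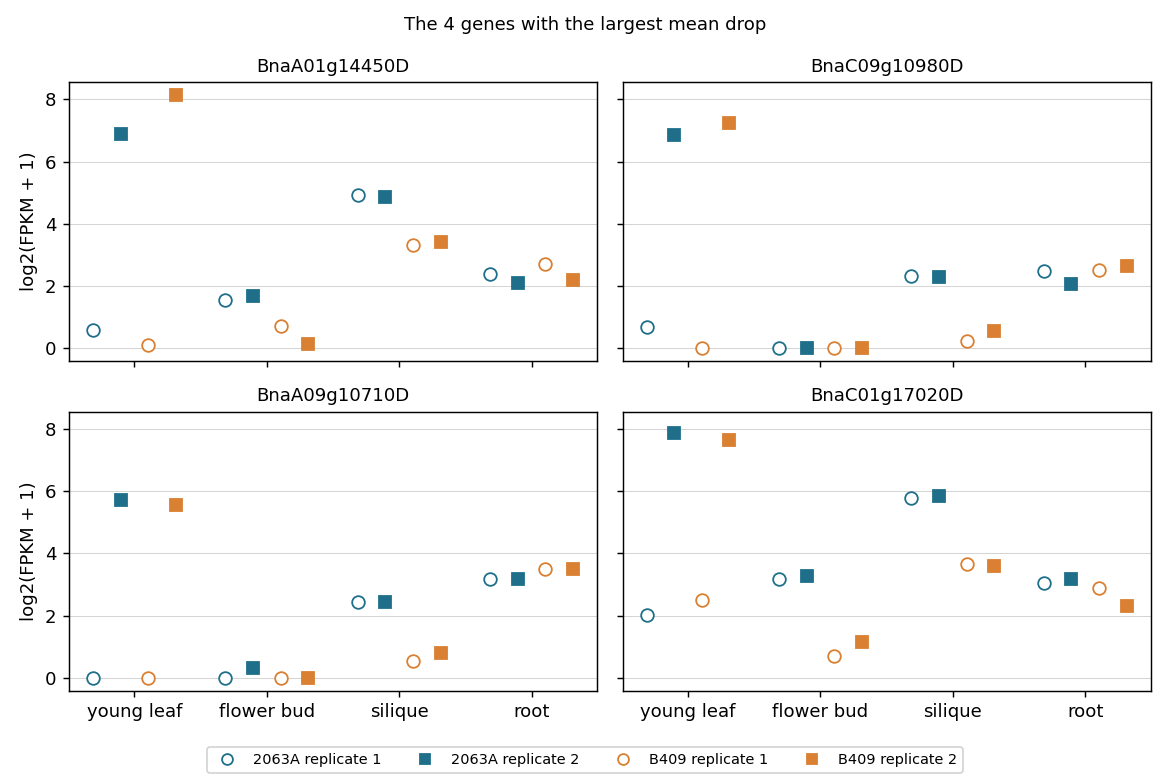
Level as log2(FPKM + 1) of the 4 genes with the largest mean drop in each of the 16 libraries, by tissue, with open circles for replicate 1 and filled squares for replicate 2, 2063A in blue and B409 in orange. In young leaf circles and squares of 1 colour lie far apart, as for BnaA01g14450D at 0.498 against 116.5 FPKM in 2063A, and in silique the 2063A points lie above those of B409.

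Of the 183 genes, 7 were listed at 0 in at least 1 young leaf replicate 1 library (4 in 2063A and 6 in B409), and 3 in both. BnaA09g10710D, described above, was 1 of the 3. BnaC07g39340D was listed at 0 in replicate 1 of both cultivars, and had 15.7 FPKM in replicate 2 of 2063A and 24.0 FPKM in replicate 2 of B409. It was a gene of leaf and flower bud, with 8.00 and 7.68 FPKM in flower buds of 2063A and 8.17 and 6.78 FPKM in those of B409, and at most 2.12 FPKM in silique and 0.862 FPKM in root. BnaA04g22640D was listed at 0 in both replicate 1 leaves, had 18.6 FPKM in replicate 2 of 2063A and 12.2 FPKM in replicate 2 of B409, and elsewhere had a value above 0 in B409 flower bud replicate 1 alone (0.140 FPKM). Such leaf-restricted genes were few: 6 of the 183 (3.28%) stayed below 1 FPKM in all 12 libraries of the other tissues, against 85 of the 12889 genes with enough FPKM (0.659%).

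The 3 genes with the highest FPKM in the replicate 2 leaves dropped by far less than the 4 genes above. BnaA08g21730D had 722 FPKM in replicate 1 and 1518 FPKM in replicate 2 of 2063A young leaf, and 603 and 1335 FPKM in those of B409, differences of -1.07 and -1.15 (log2). It was a leaf gene also in the low replicate, since its highest value elsewhere was 184.8 FPKM, in 2063A silique replicate 1. BnaC03g18820D had 88.0 and 350 FPKM in replicates 1 and 2 of 2063A young leaf and 340 and 795 FPKM in those of B409. BnaA03g15610D had 216 and 641 FPKM in replicates 1 and 2 of 2063A young leaf and 75.5 and 318 FPKM in those of B409. BnaC03g18820D was thus lower in 2063A than in B409 in both replicates and BnaA03g15610D higher. The drop of each in both cultivars is set by the rule.

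The members nearest the threshold were BnaA05g30820D (-1.0035 in 2063A, -1.1525 in B409), BnaA10g25250D (-1.1907 and -1.0058) and BnaCnng47950D (-1.2085 and -1.0068). Just outside it were BnaC06g41080D (-0.9987 and -2.024), BnaA05g30800D (-0.9987 and -1.042) and BnaC01g21180D (-1.1942 and -0.9972). BnaC06g41080D had 97.3 and 196 FPKM in replicates 1 and 2 of 2063A young leaf and 32.2 and 134 FPKM in those of B409, so a gene with a drop as large as that of many members was left out by the other cultivar.

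Seen over all libraries, the median level of these genes in the replicate 1 leaves lay below silique, close to the highest flower bud libraries, and in the replicate 2 leaves above the medians of every other tissue. The median FPKM of the 183 genes was 4.33 in 2063A and 4.63 in B409 young leaf replicate 1, and 18.7 and 14.8 in replicate 2. It was 2.42 to 4.4 over the 4 flower bud libraries, 8.07 to 10.5 over the silique libraries and 1.97 to 2.77 over the root libraries. The 12889 genes with enough FPKM had medians of 12.6 and 13.0 in young leaf replicate 1, 13.5 and 12.4 in replicate 2, and 10.8 to 14.6 in the other libraries. The leaf values follow from the rule; those of the other tissues do not enter it.

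**Figure D3:**
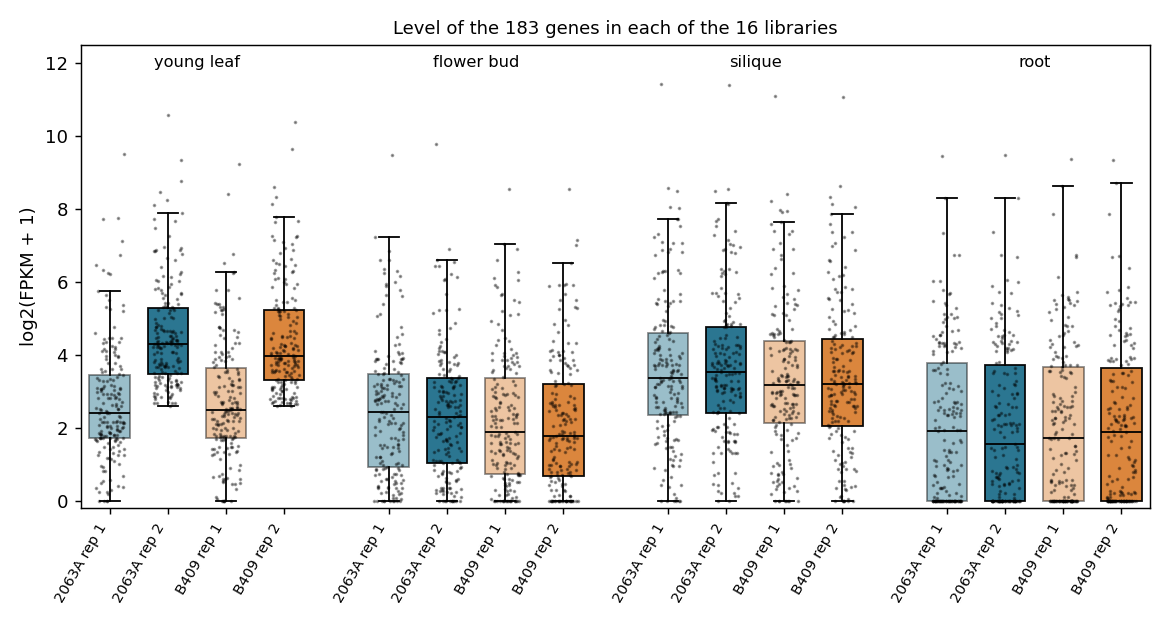
Level of the 183 genes as log2(FPKM + 1) in each of the 16 libraries, with 1 dot per gene and boxes for the quartiles and median, paler for replicate 1. The boxes of young leaf replicate 1 (medians 4.33 and 4.63 FPKM) lie well under those of replicate 2 (18.7 and 14.8 FPKM), and outside the leaf the silique boxes are the highest.

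The genes' share of all FPKM was lower in the replicate 1 leaves, which follows from the rule. It was 0.494% in 2063A and 0.478% in B409 young leaf replicate 1, 1.46% and 1.42% in replicate 2, 1.23% to 1.47% over the silique libraries, 0.375% to 0.503% over those of flower bud and 0.54% to 0.568% in root libraries. In silique 1 gene, BnaCnng42990D, carried much of it, and without that gene the silique share was 0.849% to 0.993%. Without the same gene the flower bud share was 0.307% to 0.372%. The root share was 0.405% to 0.444% without BnaC07g48800D, the highest gene there. Without their highest gene, BnaA08g21730D, the leaf shares were 0.375% and 0.376% in replicate 1 and 1.22% and 1.2% in replicate 2. Set against silique of the same cultivar, the replicate 1 leaves were lower by a median of -0.87 (log2) in 2063A and -0.57 in B409, and the replicate 2 leaves higher by 0.90 and 1.004. In replicate 1, 51 of the 183 genes lay above their silique mean in 2063A and 53 in B409, and in replicate 2 the counts were 130 and 136. The leaf values in these comparisons enter the rule, so nothing is read from the difference between the replicates.

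The place of the leaf among the tissues was counted for each replicate. Both replicate 2 leaves lay above all 12 libraries of the other tissues for 77 of the 183 genes (42.1%, against 24.8% of the 12889), and below all 12 for 4 (2.19%, against 23.7%). Both replicate 1 leaves lay above all 12 for 13 of the 183 genes (7.1%, against 23.7%) and below all 12 for 29 (15.8%, against 23.8%). The rule used the leaf values, so nothing is read from these counts. Among flower bud, silique and root alone, which the rule did not use, silique had the highest mean over 4 libraries for 111 of the 183 genes (60.7%), root for 52 (28.4%) and flower bud for 20 (10.9%). For the 12889 genes these shares were 38.1%, 31.6% and 30.3%. For the 148 genes of the mirrored rule the order was another one, with flower bud highest for 62.8%, silique for 23.0% and root for 14.2%.

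The order of the other tissues was tested with limma on log2(FPKM + 1) in the 12 flower bud, silique and root libraries, with 1 mean per cultivar and tissue. The fit took the 53057 genes that reached an FPKM of 1 in 2 or more of the 12 libraries. Of the 183 genes 174 passed that filter and 9 did not, so counts below are of 174. Calls needed an adjusted p below 0.05 (Benjamini-Hochberg, over all genes tested) and a log2 change of 1 or more in size, a scale that understates the change of low genes. Tissue goes with plant age and with field or chamber, which cannot be told apart.

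Most of the genes differed between silique and root. Silique was higher for 97 of the 174 genes (55.7%), against 17.2% of all genes tested and 31.4% of those with enough leaf FPKM, and lower for 32 (18.4%), against 17.5% and 10.3%. The median log2 change was 1.41 over the 174 genes, 0 over all genes tested and 0.20 over those with enough leaf FPKM.

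The gene with the highest silique level was BnaCnng42990D. It had 2723 and 2705 FPKM in siliques of 2063A and 2164 and 2150 FPKM in those of B409, and in root it was listed at 0 in 3 libraries and had 0.153 FPKM in the last, B409 replicate 2. It averaged 2436 ± 322 FPKM in silique (SD, n = 4), and the change from root was 11.19 (SE 0.07, limma adjusted p = 3e-15). In young leaf it had 2.85 and 96.7 FPKM in replicates 1 and 2 of 2063A and 41.6 and 153 FPKM in those of B409. The leaf levels were thus a small part of the silique level in both replicates.

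BnaC06g06760D had 262 and 281 FPKM in siliques of 2063A and 336 and 394 FPKM in those of B409, and 0.28 and 0.453 FPKM in roots of 2063A and 0.365 and 0.158 FPKM in those of B409. The change was 7.91 (SE 0.08, limma adjusted p = 7.1e-14). Its young leaf levels were 5.56 and 31.2 FPKM in replicates 1 and 2 of 2063A and 8.90 and 31.9 FPKM in those of B409, between root and silique.

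Other members were root genes. BnaA02g21730D had at most 0.160 FPKM in silique and 0.221 FPKM in flower bud, against 161.7 and 165.1 FPKM in roots of 2063A and 232.7 and 231.7 FPKM in those of B409 (silique minus root -7.56, SE 0.09, limma adjusted p = 2.1e-13). Its young leaf levels were 6.13 and 15.8 FPKM in replicates 1 and 2 of 2063A and 8.74 and 29.6 FPKM in those of B409. BnaC07g48800D averaged 6.90 FPKM in silique and 679 ± 27.9 FPKM in root (SD, n = 4), with a change of -6.45 (SE 0.08, limma adjusted p = 1.8e-13). It had 2.56 and 12.04 FPKM in replicates 1 and 2 of 2063A young leaf and 7.73 and 17.4 FPKM in those of B409, far below its root level.

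Flower bud lay below silique for most genes that differed between them. It was lower for 82 of the 174 genes (47.1%), against 9.12% of all genes tested and 14.4% of those with enough leaf FPKM, and higher for 2 (1.15%), against 8.94% and 2.83%. The median log2 change was -0.90, against 0.06 over all genes tested and -0.13 over those with enough leaf FPKM. BnaCnng10870D had 2.21 and 2.41 FPKM in flower buds of 2063A and 2.42 and 2.32 FPKM in those of B409, and averaged 264 ± 16.7 FPKM in silique (SD, n = 4), a change of -6.30 (SE 0.15, limma adjusted p = 1.5e-10). Its young leaf values were 8.07 and 55.5 FPKM in replicates 1 and 2 of 2063A and 38.5 and 98.3 FPKM in those of B409. BnaC07g39340D, listed at 0 in both replicate 1 leaves, was among the 2 genes higher in flower bud (2.05, SE 0.11, limma adjusted p = 6.1e-08). Without 2063A silique replicate 1 only 1 gene was higher in flower bud.

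Flower bud against root split the genes more evenly. Flower bud was higher for 57 of the 174 (32.8%), against 21.8% of all genes tested and 29.3% of those with enough leaf FPKM, and lower for 48 (27.6%), against 19.3% and 14.7%. The median log2 change was 0.24, against 0.22 and 0.33. The 3 tissue contrasts share libraries, so their counts are not separate pieces of evidence.

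Put together, the calls sorted the 174 genes into 5 patterns. Silique above both root and flower bud was the most frequent with 64 genes (36.8%, against 9.41% of the genes with enough leaf FPKM and 5.64% of all genes tested). Root above both others had 30 genes (17.2%, against 8.62% and 14.9%), and silique and flower bud above root had 27 (15.5%, against 18.9% and 9.36%). In 27 genes no pair of tissues was called (15.5%, against 46.9% and 48.5%), and 26 genes had another pattern (14.9%, against 16.2% and 21.5%).

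The leaf levels of the patterns are given as a description. In the 64 silique genes the median FPKM was 7.16 in 2063A and 9.43 in B409 young leaf replicate 1, and 31.0 and 32.7 in replicate 2, beside medians of 19.8 in silique, 0.43 in root and 2.56 in flower bud. The 30 root genes had medians of 2.84 and 3.56 in young leaf replicate 1 and 12.3 and 13.9 in replicate 2, against 26.2 in root, 4.42 in silique and 1.60 in flower bud. By these medians the replicate 2 leaves lay above silique for the silique genes, and both leaf replicates lay below root for the root genes.

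**Figure D4:**
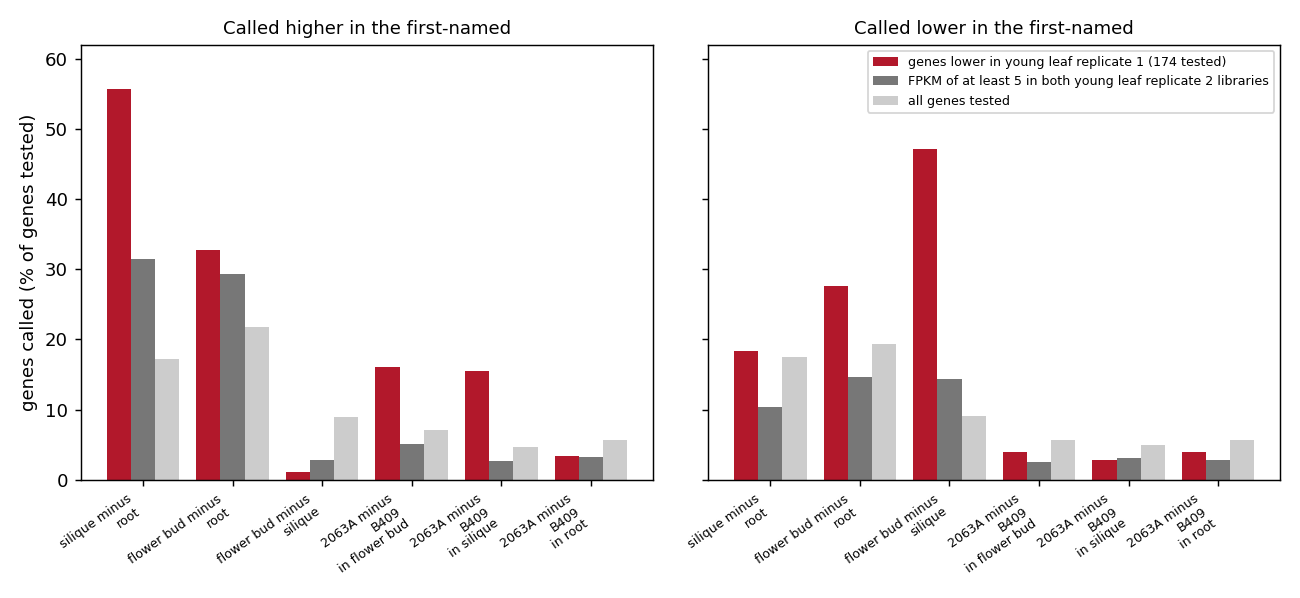
Percentage of genes called higher (left) and lower (right) in the first-named tissue or cultivar, for the 174 tested genes that were lower in young leaf replicate 1 (red), the genes whose FPKM reached 5 in both young leaf replicate 2 libraries (dark grey) and all genes tested (light grey). The red bars stand out for silique over root (55.7%) and for flower bud below silique (47.1%).

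Many of the genes were listed at 0 in root. Of the 183 genes, 42 (23.0%) were listed at 0 in all 4 root libraries, against 812 (6.3%) of the 12889 with enough leaf FPKM, and 69 (37.7%) stayed below 1 FPKM there, against 13.6%. BnaA06g01430D was such a gene, listed at 0 in every root library. It had 1.26 and 10.4 FPKM in replicates 1 and 2 of 2063A young leaf, 17.4 and 56.1 FPKM in those of B409, and 111 and 119 FPKM in siliques of 2063A against 298.5 and 318 FPKM in those of B409.

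The cultivars were compared within each of the other tissues. In flower bud 2063A was higher than B409 for 28 of the 174 genes (16.1%), against 7.1% of all genes tested and 5.16% of those with enough leaf FPKM, and lower for 7 (4.02%), against 5.73% and 2.47%. In silique it was higher for 27 (15.5%), against 4.6% and 2.66%, and lower for 5 (2.87%), against 4.95% and 3.07%. In root the counts were 6 higher (3.45%, against 5.61% and 3.19%) and 7 lower (4.02%, against 5.66% and 2.76%). Of the 174 genes 11 were higher in 2063A in both flower bud and silique (6.32%, against 3.15% and 1.64%) and 3 were lower in both (1.72%, against 2.69% and 1.35%). In at least 1 tissue 57 were called (32.8%, against 21.6% and 13%). Averaged over the 3 tissues, 8 genes were higher in 2063A (4.6%, against 4.24% and 2.33%) and 6 lower (3.45%, against 4.03% and 1.85%).

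Those counts varied with the libraries in the fit. When the young leaf libraries were added, all 183 genes were tested, and 11 were higher in 2063A in flower bud and 9 in silique. Of all 54206 genes tested in that fit, 3673 and 2339 were higher. The genes were chosen on the leaf spread, which enters the SEs of that fit. Fewer calls thus follow from the rule, and nothing is read from them. Without 2063A silique replicate 2, 9 genes in place of 5 were lower in 2063A in silique. Whether the cultivar difference of the 183 genes varied between tissues was not tested.

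BnaC03g04930D had the largest cultivar difference among the members, 2.78 over the 3 tissues (SE 0.08, limma adjusted p = 1e-09). It had 64.1 and 66.0 FPKM in roots of 2063A against 2.25 and 2.90 FPKM in those of B409, a log2 difference of 4.21 (SE 0.14, limma adjusted p = 8.1e-09), and 27.4 and 27.6 FPKM in siliques of 2063A against 4.21 and 3.95 FPKM in those of B409 (2.49, SE 0.14, adjusted p = 4.2e-07). In young leaf it had 17.7 and 64.6 FPKM in replicates 1 and 2 of 2063A and 3.52 and 9.01 FPKM in those of B409. 2063A thus lay above B409 in both leaf replicates as well, and the lower level in replicate 1 is set by the rule. The opposite direction was seen in BnaA06g01430D, with 6.31 and 7.83 FPKM in flower buds of 2063A against 57.6 and 59.1 FPKM in those of B409 (-2.88, SE 0.10, limma adjusted p = 1.9e-08). BnaAnng38380D had 8.17 and 7.58 FPKM in siliques of 2063A and was listed at 0 in both silique libraries of B409 (limma adjusted p = 1.3e-06).

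The same replicate difference was then tested in the tissues that the rule did not use. With cultivar and tissue in the model, replicate 1 against replicate 2 over the 12 libraries gave no called gene among the 174 (0%) and none among the 53057 (0%), by limma. At an unadjusted p below 0.05 there were 9 of the 174 and 2186 of the 53057, and the smallest adjusted p of the 174 was 0.996. A replicate number in one tissue need not share anything with the same number in another, and no second tool was run on these values.

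Tissue by tissue, the median replicate difference of the 183 genes was 0.01 in 2063A and 0.07 in B409 flower bud, -0.07 and -0.04 in silique, and 0 in both roots. Genes with a difference below 0 were 41.5% and 33.9% in flower bud (against 51.9% and 45.2% of the 12889), 68.9% and 56.8% in silique (against 60.1% and 52.7%), and 32.2% and 32.8% in root (against 43.7% and 42.7%). Genes listed at 0 in both replicates cannot lie below 0. In all root libraries 23.0% of the 183 genes were listed at 0, against 6.3% of the 12889. A difference below -1 was found in 3 genes, all in 2063A silique (1.64%, against 0.155%), and in none of the 183 in the other 5 groups outside the leaf. The opposite difference, above 1, was found in 5 genes in 2063A flower bud (2.73%, against 0.0931%) and in 3 in B409 flower bud (1.64%, against 0.209%), and in none in silique or root. The widest of these was BnaA05g33520D, with 70.6 FPKM in replicate 1 and 17.3 FPKM in replicate 2 of 2063A flower bud, a gene chosen after its values were seen.

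**Figure D5:**
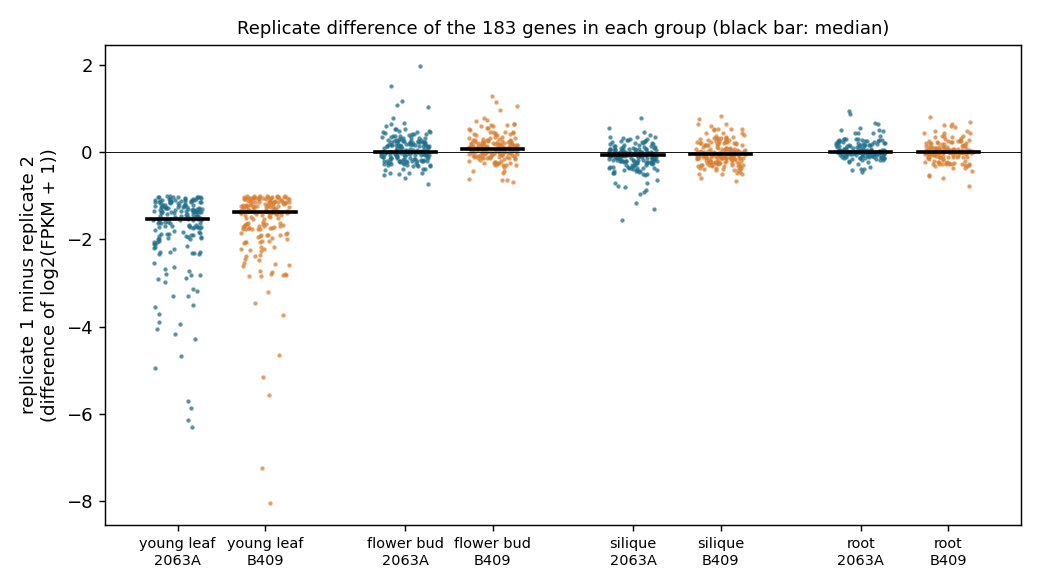
Difference of log2(FPKM + 1), replicate 1 minus replicate 2, of the 183 genes in each cultivar and tissue, with 1 dot per gene and a black bar at the median. The young leaf medians are -1.53 and -1.38 by the choice of genes, and in the other tissues the medians lie between -0.07 and 0.07.

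Those 3 genes lie on chromosome C09. BnaC09g29260D had 5.51 FPKM in replicate 1 and 18.2 FPKM in replicate 2 of 2063A silique, BnaC09g16540D had 6.89 and 18.4 FPKM, and BnaC09g26900D had 6.43 and 15.5 FPKM. In B409 silique the replicates of BnaC09g29260D had 8.55 and 10.02 FPKM. With BnaC09g30100D they formed a group of 4 with nearly one profile: Pearson's r over the 16 libraries was 0.983 to 0.995 between them, and no library differed by more than 0.65 on the log2 scale. All 4 were listed at 0 in every root library. If they are near-identical copies, these 4 may not be separate measurements.

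Besides those 4 genes, 5 pairs among the 183 had an r above 0.98 and no library more than 1 apart in log2, a limit chosen after the values were seen. In 3 of them an A and a C chromosome pair up with different numbers, as BnaA02g28200D with BnaC04g16690D (r = 0.997), BnaA03g39520D with BnaC07g49690D (0.985) and BnaA07g27940D with BnaC06g30570D (0.988). BnaA04g22640D, on A04, paired with BnaC04g05320D, on C04 (0.981), and both were near 0 outside the leaf. The last pair was BnaC01g32590D with BnaCnng51340D (0.989). Whether any of the pairs are homeologs was not tested. All genes here share the low replicate 1 leaf by choice, which raises r between any pair of them.

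By subgenome, 77 of the 183 genes lie in A (1.24% of the 6190 A genes with enough leaf FPKM), 105 in C (1.57% of 6677) and 1 on a sequence with no subgenome. By chromosome the share ranged from 0.385% on A01 (2 of 519) to 2.96% on C01 (17 of 575), and was 2.47% on A10 (11 of 445). The C sequences with no chromosome held 19 of 741 (2.56%). Members on sequences with no chromosome were left out of the search for neighbours. Some members had identifiers close together, as BnaC01g08110D and BnaC01g08130D. Among members placed on a chromosome, only BnaC07g30240D and BnaC07g30250D had adjacent identifiers. That pair had different levels elsewhere, with a mean over flower bud libraries of 12.3 FPKM in BnaC07g30240D and 0.926 FPKM in BnaC07g30250D.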

How the data were processed

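RNA-seq of 16 libraries was analysed (total RNA, Illumina TruSeq libraries). The authors deposited 1 table a library, with an FPKM column, per the file headers. Trimmomatic, TopHat2 and Cufflinks 2.1.1 were used, per the submitters' processing notes, and the build and annotation were not given in the sources used here. With FPKM in place of counts, no count model was used and depth is unknown. The 183 genes, called members, and the lists were chosen with earlier results of these data known. Differences were taken on log2(FPKM + 1). Tests used limma 3.58.1 in R 4.3.3 (lmFit, eBayes with trend, two-sided, 6 residual and 4.09 prior degrees of freedom) on the 12 libraries outside the leaf, because the genes were chosen on the leaf spread, and were checked on simulated data. Tables and figures used Python 3.11.15 with pandas 2.3.3 and matplotlib 3.10.9. Alternatives were other pseudocounts, filters, scalings, all 16 libraries, a replicate block and leaving out each library. Genes named were chosen by rank: the largest mean leaf drops, the highest leaf FPKM in replicate 2, the largest called changes per contrast with no overlap of libraries, the genes nearest the threshold, those listed at 0 in both replicate 1 leaves and runs of neighbours, of which the text prints a part. The silique genes of chromosome C09 and the pairs of like profile were chosen after their values were seen. RefSeq's Da-Ae gene table matched 3347 of 101040 identifiers and 11 of the 183 genes, with another name for 2 and 0 of them, and held no descriptions, so annotation lists, tissue markers and promoter motifs were not used here.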

Additional observations from a re-analysis of the deposited data

Results flagged for a closer look

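BnaC02g48660D differed between the cultivars in opposite directions in a pair of tissues. 2063A minus B409 was -1.62 in silique (6.17 against 21.0 FPKM on average, limma adjusted p = 0.0003) and 1.20 in root (1.47 against 0.0424 FPKM, limma adjusted p = 0.0018). Each mean is over 2 libraries, and 1 of the B409 root libraries was listed at 0. The difference between the tissues was not tested. In flower bud the value was -0.86 and was not called. In young leaf the gene had 2.20 and 10.3 FPKM in replicates 1 and 2 of 2063A against 53.9 and 141 FPKM in those of B409. With all 16 libraries in the fit both calls were lost (limma adjusted p = 0.054 in silique and 0.14 in root). That fit takes in the leaf spread on which the gene was chosen, so nothing is read from the loss. The root call rests on 2063A root replicate 1: without it the value was 0.86, under the limit of 1 for a call. In that fit the silique value was -1.62, so the signs stayed opposite while only silique was called.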

How the results depend on the processing

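The rule took 183 genes. It took 50 with a log2 drop over 1.5, 720 with a drop over 1.5-fold, 355 at a minimum FPKM of 1 and 109 at a minimum of 10. With pseudocounts of 0.1 and 0.5 it took 254 and 222, with equal FPKM totals 154, with the differences centred on their median 149, and after quantile normalization 185, of which 145 were among the 183. With a pseudocount of 0.1 in the fit, 4 of the 174 members were higher in flower bud than in silique, against 8233 of all 53057 genes tested. 2063A was higher than B409 for 20 members over the 3 tissues (4641 of all genes) and for 43 in flower bud (6742). In root it was higher for 16 members (4903 of all genes) and lower for 14 (4396). With all 16 libraries, 1 of the 183 members was higher in flower bud than in silique, against 4734 of all 54206 genes tested. 2063A was higher for 11 members in flower bud (3673 of all genes). In silique it was higher for 9 (2339) and lower for 1 (2560), and in root higher for 2 (2906) and lower for 4 (2941). Leaving out 1 library at a time gave 97 to 99 members higher and 30 to 32 lower in silique against root, 1 to 3 and 79 to 88 in flower bud against silique, and 55 to 59 and 46 to 51 in flower bud against root. For 2063A against B409 it gave 8 to 10 higher and 5 to 7 lower over the tissues, 22 to 33 and 7 to 10 in flower bud, 24 to 28 and 5 to 9 in silique, and 4 to 7 and 7 to 9 in root, and for replicate 1 against 2 it gave 0 in each direction. The rule needs all 4 young leaf libraries, so none could be left out there. For BnaC09g10980D, silique minus root was -1.07 and moved between -1.18 and -0.97. Its call, and with it the pattern of root above both others, was lost without 2063A root replicate 1 (-0.97, short of the limit of 1). The call was also lost with all 16 libraries (limma adjusted p = 0.53). Its sign stayed the same in both. Outside the leaf, same-numbered libraries did not deviate together (correlations of -0.0529 to 0.0416), and a fit with the replicate block gave the same member counts, 97 and 32 in silique against root among them. Quantile normalization moved the median of all genes in flower bud against root to 0.10 from 0.22. Of 630 repeats for the genes named by rank in the contrasts, 624 kept their call, 6 lost it, all with all 16 libraries, and 0 changed sign. The fit of all 16 libraries takes in the leaf spread on which the members were chosen. Its larger SEs follow from the rule, and nothing is read from calls lost there. The cause of the other shifts was not tested. Annotation groups were not run. Depth is unknown, so FPKM near 0 carries an error that cannot be stated.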
